A study of Mus musculus with 12 samples.

Results

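The collagen genes of MC38 tumors were described across 11 tumor samples, 5 from mice given BG136 and 6 from mice given vehicle. They were taken as every row of the deposited expression table whose name reads Col, digits, the letter a and digits, which gave 38 of 15170 genes. By the form that the protein takes, 10 of the 38 encode fibrillar collagens, 6 encode collagens of basement membranes and 22 encode other collagens. The name alone chose the members, and no measured value did.

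MC38 is a mouse colon adenocarcinoma line, grown here as a tumor in mice. Mice of the BG136 group received an intravenous injection of BG136, a soluble β-glucan with linkages of the 1,3 and 1,6 kind, and mice of the vehicle group an intravenous injection of vehicle; the genotype is given as wild type for both. The wider study paired BG136 with anti-PD-1, an antibody that blocks an inhibitory receptor on T cells, but no library from a mouse given that antibody was analysed here. Each group had 6 libraries of poly(A)-selected RNA from tumor blocks. Mouse strain, age, dose, time of collection and tumor size were not given in the sources used here, and all tumors come from a single cell line. The labels do not say that libraries came from separate mice, so each p-value refers to the spread of the samples at hand, which may be technical.

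The reads of BG136 replicates 7 and 9 differed by less than sampling noise gives, at a chi-square per gene of 0.285 against 7.88 to 57.4 in the other 29 pairs of the same group. They may be a single library deposited more than once, which the labels do not settle. They were averaged and counted as 1 sample, written 7-9, and read numbers given for it are the sum over both. These replicates held 33231037 and 32956232 recovered reads, and each of the other 10 libraries 14828786 to 18125931. Some markers of epithelial cells, which a carcinoma line would carry, were close to 0 in part of the BG136 tumors. The keratin gene Krt8 was listed at 0 FPKM in BG136 replicate 4 and at 0.14 in replicate 6. Krt18 was at 0 in both. In vehicle tumors Krt8 was at 2.0 to 6.67 FPKM and Krt18 at 2.22 to 7.59. The epithelial marker Cdh1 was not low in those BG136 tumors, at 4.41 FPKM in replicate 4 and 2.84 in replicate 6. Its vehicle values were 2.24 to 4.28 FPKM.

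Collagens are secreted proteins wound from 3 chains into a rope-like helix. Fibrillar collagens align into the fibres that bear load in connective tissue, type IV collagen forms the sheet-like net under epithelium and around vessels, and the others anchor, coat or link these structures. In solid tumors most collagen RNA is known to come from fibroblasts and pericytes of the host, with type IV also made by endothelial cells. MC38 cells and their host are both mouse, so the reads of tumor and host cells cannot be told apart here. In whole tumor tissue, fewer cells of a type and less RNA per cell cannot be told apart either.

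Sequences at the gene starts are shown for members on which the results turn: Col3a1, the highest gene of the family; Col6a3, a chain of the beaded filaments; Col7a1, the gene that varied least between tumors; Col8a1, with the largest difference between the groups among tested members; and the start shared by Col4a1 and Col4a2, the pair that moved together most closely. They come from RefSeq's promoter table (build GRCm38.p6) and are not used as positions of the deposited reads, whose build was GRCm39. The windows are chr1:45311288-45311537 on the plus strand for Col3a1, chr1:90844002-90844221 on the minus strand for Col6a3, chr9:108953336-108953585 on the plus strand for Col7a1 and chr16:57754738-57754987 on the minus strand for Col8a1. Each ends before the transcribed part of its gene. Capitals mark the TATA box letters TATAAA, the CCAAT box letters CCAAT and the GC box letters GGGCGG on either strand; these motifs do not overlap one another here.
Col3a1: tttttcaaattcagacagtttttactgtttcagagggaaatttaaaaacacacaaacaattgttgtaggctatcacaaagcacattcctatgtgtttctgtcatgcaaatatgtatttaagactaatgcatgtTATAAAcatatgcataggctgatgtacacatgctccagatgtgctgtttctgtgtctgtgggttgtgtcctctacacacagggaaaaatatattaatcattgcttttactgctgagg
Col6a3: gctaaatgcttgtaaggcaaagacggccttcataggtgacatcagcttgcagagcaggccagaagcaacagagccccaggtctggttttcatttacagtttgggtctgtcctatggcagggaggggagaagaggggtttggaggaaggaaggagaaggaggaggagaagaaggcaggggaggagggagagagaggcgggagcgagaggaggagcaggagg
Col7a1: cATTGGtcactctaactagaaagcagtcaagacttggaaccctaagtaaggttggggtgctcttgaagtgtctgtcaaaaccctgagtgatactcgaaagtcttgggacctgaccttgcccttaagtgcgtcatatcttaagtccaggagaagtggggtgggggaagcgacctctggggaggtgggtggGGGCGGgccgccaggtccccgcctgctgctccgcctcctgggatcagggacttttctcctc
Col8a1: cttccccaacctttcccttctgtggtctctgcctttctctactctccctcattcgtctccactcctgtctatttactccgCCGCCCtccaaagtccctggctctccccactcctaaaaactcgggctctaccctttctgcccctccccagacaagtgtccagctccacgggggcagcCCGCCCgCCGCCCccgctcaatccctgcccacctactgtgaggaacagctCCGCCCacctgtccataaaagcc
Col4a1 and Col4a2 are read in opposite directions from starts that lie close together, and the starts listed in the promoter table enclose the 22 bases at chr8:11312805-11312826, given on the plus strand, which is the strand of Col4a2. These bases lie in the transcribed part of both genes, not upstream of them.
Col4a1 and Col4a2: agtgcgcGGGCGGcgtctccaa
Of the 38 collagen genes, 33 had an entry in the table. With the 250 bases before the first listed start of each gene, GGGCGG was found in 20 of 33 (60.6%), CCAAT in 11 (33.3%) and TATAAA in 5 (15.2%). Over all 32851 windows of the same length in the table, the shares were 32.7%, 33.8% and 12.4%. Those windows count every listed start of a gene, not only the first. Of the 33 collagen windows, 18 were free of annotated exons, and the rest ran over some. The Col8a1 window held 4 GC boxes, that of Col3a1 a TATA box, and that of Col6a3 none of the 3 motifs; a match is a run of letters, not evidence of a bound factor.

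Type III, type VI and type I collagen genes stood highest. Levels are given as FPKM, fragments per kilobase of transcript scaled to the size of the library, which can be compared between genes. Col3a1, the chain of type III collagen in soft connective tissue, averaged 738 FPKM over the 11 samples and ranked 74th of 15170 genes. Col6a1 of type VI collagen averaged 330.2 FPKM, and Col1a1 of type I collagen, the main collagen of skin, tendon and bone, 184 FPKM. These 3 genes held 55.7% of the summed collagen FPKM and the 10 highest held 90.4%. Col6a3 (157 FPKM), Col6a2 (134), Col1a2 (134), Col5a1 (116), Col16a1 (82.0), Col5a3 (79.0) and Col4a1 (77.9) completed those 10. Another 10 genes had enough signal to be tested, between 1.36 FPKM for Col9a3 and 61.6 FPKM for Col4a2. The 18 remaining members together held 0.2% of the summed FPKM.

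**Figure D1:**
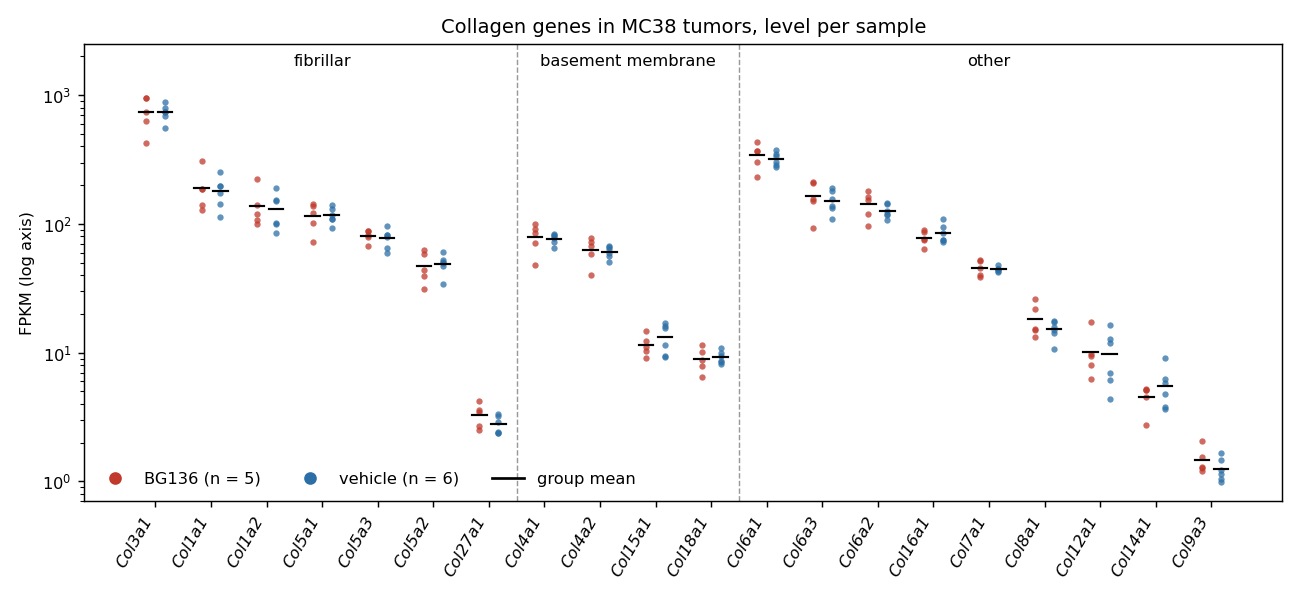
FPKM on a log axis of the 20 collagen genes with enough signal to be tested, one point per sample, BG136 (n = 5) left of vehicle (n = 6) for each gene, with group means as bars; genes are ordered by level within the fibrillar, basement membrane and other classes. Col3a1 is highest at 738 FPKM over all samples, Col9a3 lowest at 1.36, and the points of both groups overlap for every gene.

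The comparison of BG136 with vehicle asked whether the injected glucan changed the collagen program of the tumors, and no collagen gene passed the test. It was made with limma on log2(FPKM + 1) over the 11356 genes with at least 1 FPKM in at least 6 samples, 20 of them collagen genes. An adjusted p under 0.05 was reached by 0 of 20 collagen genes and by 0.00% of all genes tested; the lowest adjusted p among collagen genes was 0.978. An unadjusted p under 0.05 was reached by 0 of 20 collagen genes, against 2.05% of all genes tested, and the lowest was 0.133 for Col27a1. The BG136 and vehicle samples overlapped in FPKM for all 20, whereas they did not overlap for 0.229% of all genes tested. Of the 20, 13 were higher and 7 lower in BG136 tumors by the log2 difference, and 57.4% of all tested genes were higher. The median log2 difference was 0.04 over the collagen genes and 0.02 over all tested genes. Leaving out 1 sample at a time gave medians of -0.08 to 0.16 for the collagen genes, so the direction of that median was not fixed. Differences ran from -0.21 (Col14a1) to 0.23 (Col8a1), and each of the 20 intervals at 95% lay within 1 on the log2 scale, with margins of 0.18 to 0.65 on either side. A change of 1 in either direction on the log2(FPKM + 1) scale was therefore outside each interval. For low genes a doubling is less than 1 on that scale.

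**Figure D2:**
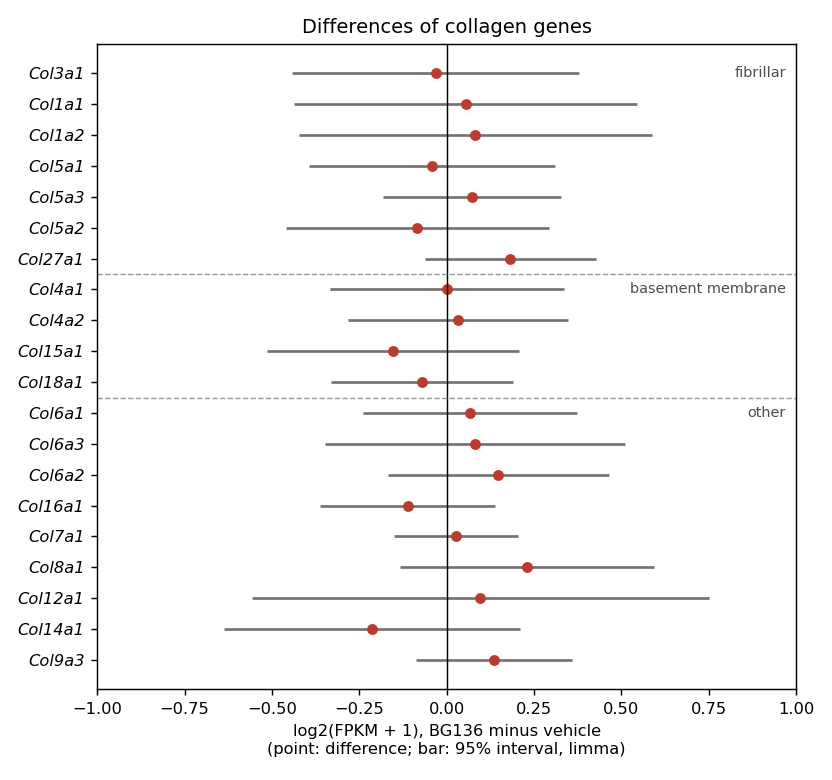
Log2 difference of FPKM + 1, BG136 minus vehicle, for each tested collagen gene, with limma's 95% interval as a bar and the line at 0 marking equal means. All 20 intervals cross 0, from the lowest difference of -0.21 for Col14a1 to the highest of 0.23 for Col8a1.

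Collagen RNA as a whole made up between 0.920% and 1.76% of the reads of a tumor. In BG136 replicates 1, 2, 4, 6 and 7-9, the order used for BG136 tumors below, the 38 genes took 1.76%, 0.920%, 1.42%, 1.69% and 1.22% of recovered reads. In vehicle tumors the share was 1.08% in replicate 7, 1.28% in replicate 12, and 1.38% to 1.497% in the other 4. Replicate 2 lay below and replicates 1 and 6 above every vehicle tumor. The mean share was 1.40% ± 0.35 (SD, n = 5) with BG136 and 1.36% ± 0.16 (SD, n = 6) with vehicle.

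Among the fibrillar collagens, 7 of 10 were tested; 4 were higher and 3 lower in BG136 tumors, with a median log2 difference of 0.05. Col1a1 and Col1a2 encode the chains of type I collagen. Col1a1 was at 306, 128, 186, 187 and 141 FPKM in BG136 tumors, against a lowest value of 114, a median of 185 and a highest of 253 FPKM in vehicle tumors. BG136 replicate 1 was above all vehicle tumors, and the other 4 fell within their range. The log2 difference was 0.05 with a standard error of 0.23. Col1a2 was at 225, 100.2, 141, 119 and 108 FPKM in BG136 tumors, against 85.4, 125 and 191 FPKM as lowest, median and highest in vehicle tumors. The order of the tumors was close to that of Col1a1, with BG136 replicate 1 highest and vehicle replicate 7 lowest for both.

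Col3a1 was at 948, 429, 739, 958 and 633 FPKM in BG136 tumors, against 558, 740.3 and 889 FPKM as lowest, median and highest in vehicle tumors. BG136 replicates 1 and 6 lay above the vehicle range and replicate 2 below it, and the means were 742 ± 223 FPKM (SD, n = 5) with BG136 and 735 ± 110 FPKM (SD, n = 6) with vehicle. Type V collagen joins type I in mixed fibrils and limits their width. Its chain Col5a1 was at 139, 72.2, 123, 144 and 102 FPKM in BG136 tumors, against 93.4, 114 and 141 FPKM as lowest, median and highest in vehicle tumors. Col5a2 averaged 47.1 ± 13.2 FPKM (SD, n = 5) with BG136 and 49.1 ± 8.6 FPKM (SD, n = 6) with vehicle, and Col5a3 averaged 80.9 ± 8.6 with BG136 and 77.4 ± 13.3 with vehicle. Within type V collagen the differences did not share a direction, at -0.04 for Col5a1, -0.08 for Col5a2 and 0.07 for Col5a3.

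Col27a1, a fibrillar collagen known from cartilage, had the lowest unadjusted p of the family at 0.133 in limma. It was at 3.60, 2.71, 3.46, 4.22 and 2.52 FPKM in BG136 tumors, against 2.38, 2.66 and 3.34 FPKM as lowest, median and highest in vehicle tumors. BG136 replicates 1, 4 and 6 lay above all vehicle tumors and replicates 2 and 7-9 among them. The log2 difference was 0.18, with an interval of -0.06 to 0.43.

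Among the basement membrane collagens, 4 of 6 were tested; 2 were higher and 2 lower in BG136 tumors, with a median log2 difference of -0.04. Col4a1 and Col4a2 encode the chains of the type IV net found in nearly all basement membranes. Col4a1 was at 90.9, 47.8, 84.8, 100.4 and 71.3 FPKM in BG136 tumors, against 65.0, 78.7 and 84.0 FPKM as lowest, median and highest in vehicle tumors. Col4a2 was at 72.0, 39.98, 67.3, 77.9 and 57.9 FPKM in BG136 tumors, against 50.5, 61.3 and 67.2 FPKM in the same terms in vehicle tumors. Both genes placed BG136 replicates 1, 4 and 6 above every vehicle tumor and replicate 2 below every vehicle tumor. The log2 differences were 0.00 for Col4a1, with an interval of -0.33 to 0.34, and 0.03 for Col4a2, with an interval of -0.28 to 0.35.

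Type XV and type XVIII collagens are basement membrane proteins that also carry long sugar chains. Col15a1 was at 14.6, 10.4, 12.3, 9.16 and 11.1 FPKM in BG136 tumors, against 9.24, 13.6 and 17.1 FPKM as lowest, median and highest in vehicle tumors. Its vehicle tumors fell apart into replicates 1, 2 and 3 at 15.6 to 17.1 FPKM and replicates 7, 11 and 12 at 9.24 to 11.5 FPKM. Col18a1, from whose end the fragment endostatin is cut, was at 10.1, 6.44, 11.4, 7.84 and 8.73 FPKM in BG136 tumors, against 8.16, 9.09 and 10.9 FPKM in vehicle tumors. The log2 differences were -0.15 for Col15a1 and -0.07 for Col18a1.

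Of the 22 other collagens, 9 were tested; 7 were higher and 2 lower in BG136 tumors, with a median log2 difference of 0.08. Type VI collagen forms beaded filaments between cells and fibres. Its chain Col6a1 was at 366, 233, 369, 434 and 305 FPKM in BG136 tumors, against 276, 319 and 374 FPKM as lowest, median and highest in vehicle tumors. Col6a2 was at 154, 96.1, 162, 182 and 120 FPKM in BG136 tumors, against 107, 123 and 146 FPKM in vehicle tumors. Col6a3 was at 207, 93.7, 155, 212 and 151 FPKM in BG136 tumors, against 110, 147 and 191 FPKM in vehicle tumors. BG136 replicate 6 was highest and BG136 replicate 2 lowest of all 11 tumors for each of these chains. The log2 differences were 0.07 for Col6a1, 0.15 for Col6a2 and 0.08 for Col6a3, and limma's standard errors of 0.14 to 0.20 were about as large or larger.

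Col8a1 encodes a short network collagen made by vessel walls, and it had the largest difference among the 20 tested members. It was at 26.0, 13.3, 15.0, 22.0 and 15.3 FPKM in BG136 tumors, against 10.7, 15.5 and 17.7 FPKM as lowest, median and highest in vehicle tumors. Replicates 1 and 6 set the higher BG136 mean, and the other 3 BG136 tumors lay within the vehicle range. The log2 difference was 0.23, with an interval of -0.14 to 0.59 and an unadjusted p of 0.197 in limma.

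Col12a1, Col14a1 and Col16a1 belong to the collagens that sit on the surface of fibrils. Col12a1 was at 17.3, 6.195, 9.43, 8.07 and 9.80 FPKM in BG136 tumors, against 4.34, 9.49 and 16.4 FPKM as lowest, median and highest in vehicle tumors. Col14a1 was at 5.26, 2.72, 5.10, 5.09 and 4.54 FPKM in BG136 tumors, against 3.64, 5.31 and 9.03 FPKM in vehicle tumors; its log2 difference of -0.21 had an interval of -0.64 to 0.21. For both genes 4 of 5 BG136 tumors lay within the vehicle range. Col16a1 averaged 78.4 ± 10.4 FPKM (SD, n = 5) with BG136 and 85.1 ± 14.1 FPKM (SD, n = 6) with vehicle.

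Col7a1 forms the anchoring fibrils that fasten epithelium to the tissue below, and it differed least between tumors. It was at 45.6, 51.7, 39.9, 52.3 and 38.9 FPKM in BG136 tumors, against 42.3, 44.5 and 47.7 FPKM as lowest, median and highest in vehicle tumors. All vehicle tumors lay inside the wider BG136 range, and the log2 difference was 0.03. Col9a3, a chain of the cartilage collagen type IX, was just above the lower limit for testing, at 1.28, 2.05, 1.21, 1.55 and 1.30 FPKM in BG136 tumors and at 0.988, 1.19 and 1.65 FPKM as lowest, median and highest in vehicle tumors.

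The collagen genes varied more between tumors than the typical gene. The coefficient of variation over the 11 samples had a median of 20.8% for the tested collagen genes and of 12.1% for all tested genes. It exceeded 12.1% for 19 of the 20, from 14.0% for Col5a3 to 42.8% for Col12a1, with Col7a1 at 9.4% as the exception. BG136 replicate 2 was the lowest of the 11 tumors for 11 of the 20 genes, BG136 replicate 6 the highest for 9 and BG136 replicate 1 the highest for 5. Relative to the mean of each gene, 19 of 20 genes were high in BG136 replicate 1, 15 in replicate 4 and 16 in replicate 6. In BG136 replicates 2 and 7-9 and in vehicle replicate 7, 2 of 20 were high. The other vehicle tumors had between 7 and 15 genes above their means.

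The low values of BG136 replicate 2 were not shared by every collagen. Averaged over the tested members, the deviation from the gene means in that tumor was -0.44 on the log2 scale for fibrillar, -0.47 for basement membrane and -0.32 for other collagens. Col9a3 was highest of all 11 tumors there, with a deviation of 0.38, and Col7a1 had a deviation of 0.20. In BG136 replicate 1 the deviations of the same classes were 0.43, 0.22 and 0.28, led by Col12a1 at 0.84, Col1a2 at 0.80 and Col1a1 at 0.79. Vehicle replicate 11 departed in opposite directions by gene, at -0.94 for Col12a1 and 0.41 for Col16a1.

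**Figure D3:**
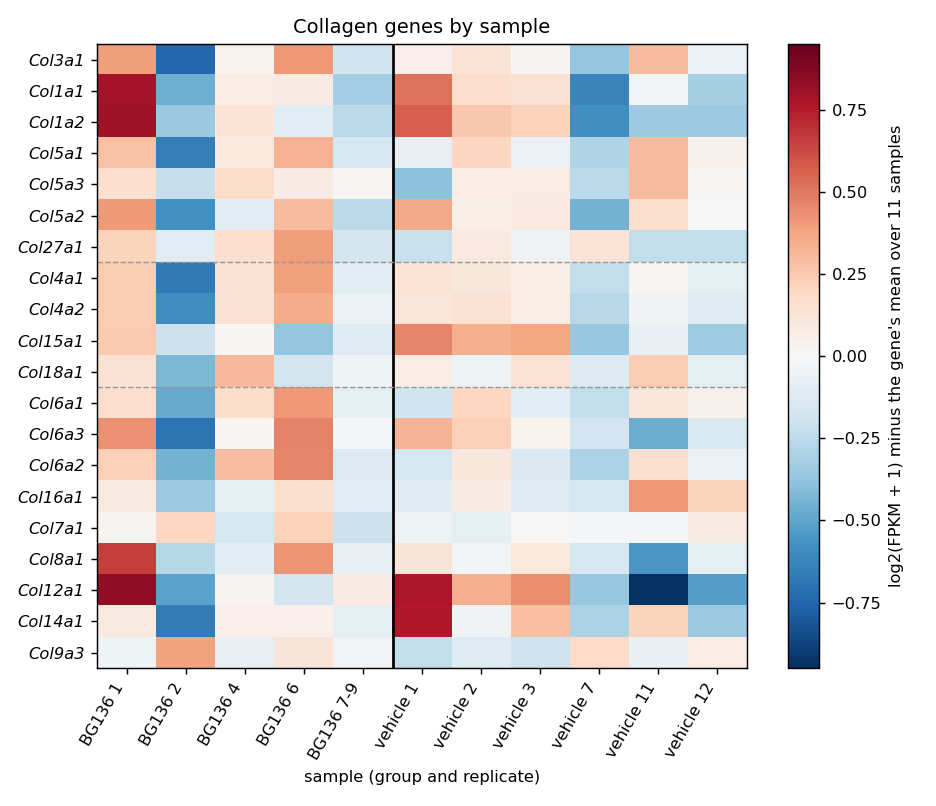
Deviation of each tested collagen gene in each sample from its mean over the 11 samples, on the scale of log2(FPKM + 1), with BG136 left of vehicle; rows are grouped as fibrillar, basement membrane and other. BG136 replicate 1 is red for 19 of 20 genes and BG136 replicate 2 blue for 18, while Col12a1 runs from 0.84 in BG136 replicate 1 to -0.94 in vehicle replicate 11.

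Ratios were computed for 3 pairs of genes within a collagen type and for 2 pairs between types; other pairs within a type were not computed. The coefficient of variation over the tumors was 9.8% for Col1a1 to Col1a2, 2.5% for Col4a1 to Col4a2 and 4.8% for Col6a1 to Col6a2. A type I molecule is known to hold more of the Col1a1 chain than of the Col1a2 chain. The ratio of Col1a1 to Col1a2 in FPKM was 1.36, 1.28, 1.32, 1.57 and 1.31 in BG136 tumors, and in vehicle tumors it was 1.30 to 1.41 except for vehicle replicate 11 at 1.72. The mean was 1.37 ± 0.11 (SD, n = 5) with BG136 and 1.40 ± 0.16 (SD, n = 6) with vehicle (exact permutation p = 0.708). The ratio of Col4a1 to Col4a2 lay between 1.196 and 1.306 over all tumors and averaged 1.25 ± 0.035 (SD, n = 5) with BG136 and 1.28 ± 0.026 (SD, n = 6) with vehicle (exact permutation p = 0.184).

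The ratio of Col6a1 to Col6a2 was 2.37, 2.42, 2.28, 2.39 and 2.54 in BG136 tumors, against 2.41 to 2.66 in vehicle tumors. Its mean was 2.40 ± 0.09 (SD, n = 5) with BG136 and 2.54 ± 0.10 (SD, n = 6) with vehicle. The exact two-sided permutation p was 0.0476, and 0.238 after Benjamini-Hochberg adjustment over the 5 ratios, so it did not hold up. For the 2 pairs between types, the coefficients of variation were 19.5% and 21.8%. Col3a1 stood at 2.95 to 5.14 times Col1a1 over the tumors, with means of 4.01 ± 0.83 (SD, n = 5) with BG136 and 4.26 ± 0.85 (SD, n = 6) with vehicle (exact permutation p = 0.63). Col5a1 relative to Col1a1 averaged 0.634 ± 0.127 with BG136 and 0.685 ± 0.165 with vehicle (exact permutation p = 0.649). After adjustment over the 5 ratios the lowest p was the 0.238 of Col6a1 to Col6a2.

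Across the 11 samples, 6 relations were computed on log2(FPKM + 1), with permutation p-values adjusted over the 6 for Pearson's r and for Spearman's rho. Col4a1 and Col4a2 had r = 0.993 and rho = 0.982 (permutation p = 1e-05 for both, the smallest that 100000 permutations can give; adjusted 6e-05 for both), r = 0.985 without the 2 samples farthest from the median of Col4a1, and r = 0.987 within the 6 vehicle tumors. Col1a1 and Col1a2 had r = 0.953 and rho = 0.964 (permutation p = 2e-05 and 5e-05, adjusted 6e-05 and 0.00015), with r = 0.899 without the 2 farthest samples and 0.94 within vehicle tumors. Both pairs kept an r of at least 0.899 in each of these subsets. Col1a1 and Col3a1 had r = 0.728 and rho = 0.755 (permutation p = 0.0108 and 0.00959, adjusted 0.0216 and 0.0191), which dropped to r = 0.621 without BG136 replicate 1 and vehicle replicate 7 and was 0.658 within vehicle tumors (exact permutation p = 0.138).

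The other relations set a collagen gene beside a gene outside the family. Serpinh1, the chaperone HSP47 that folds procollagen, had the lowest r with Col1a1 (r = 0.258 and rho = 0.364, permutation p = 0.44 and 0.271, also after adjustment), with r = 0.066 without the 2 farthest samples and -0.111 within vehicle tumors. Pdgfra, a receptor of fibroblasts, had r = 0.616 with Col1a1 (permutation p = 0.044, adjusted 0.0528) and rho = 0.736 (permutation p = 0.0127, adjusted 0.0191). Without the 2 farthest samples its r was 0.501, and within vehicle tumors it was 0.497. Cdh5, the cadherin of endothelial cells, had r = 0.62 with Col4a1 (permutation p = 0.0391, adjusted 0.0528) and rho = 0.636 (permutation p = 0.0399, adjusted 0.0478). Its r was 0.607 without the 2 farthest samples and 0.697 within vehicle tumors. For both of these pairs r missed the threshold after adjustment and rho did not. The samples differ in depth and in the muscle and fat markers given below, whose part in these relations was not tested.

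**Figure D4:**
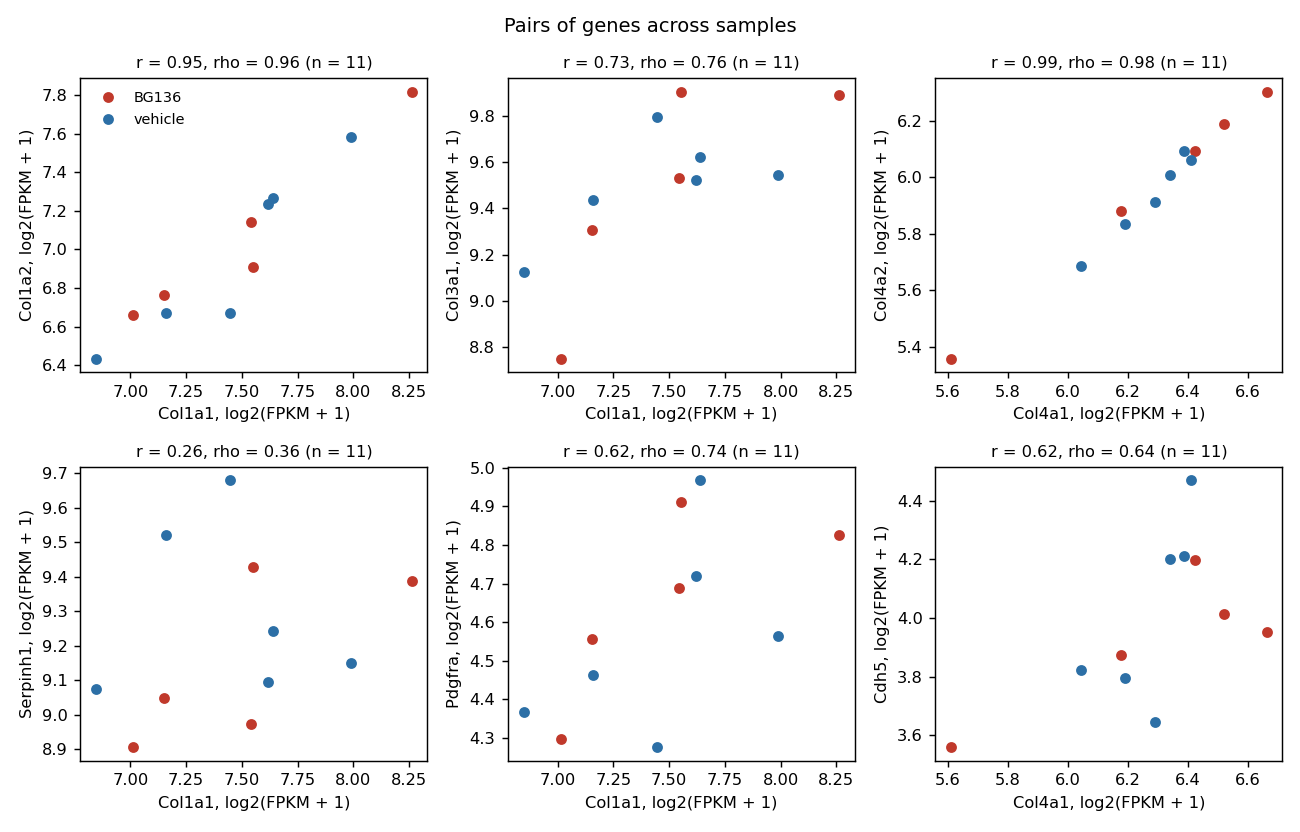
The 6 pairs of genes on log2(FPKM + 1) axes, one point per sample, BG136 in red and vehicle in blue, with r and rho over 11 samples above each panel. Col4a1 and Col4a2 lie on a narrow line (r = 0.993), Col1a1 and Col1a2 on a wider one (r = 0.953), and Col1a1 and Serpinh1 form a cloud (r = 0.258).

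The 18 members under the limit for testing averaged at most 0.795 FPKM; 11 of them had at least 100 recovered reads over all samples and 7 had fewer. The 3 highest were Col20a1 at 0.866 ± 0.155 FPKM (SD, n = 5) with BG136 and 0.736 ± 0.076 FPKM (SD, n = 6) with vehicle, Col6a4 at 0.614 ± 0.236 with BG136 and 0.714 ± 0.173 with vehicle, and Col23a1 at 0.548 ± 0.226 with BG136 and 0.425 ± 0.177 with vehicle. The others, which follow, were chosen after their values were seen. Col6a5 and Col6a6, neighbouring genes for chains of type VI collagen, were high in the same pair of tumors, from opposite groups. Col6a5 had 6, 7, 11, 113 and 53 reads in BG136 tumors, and 121 reads in vehicle replicate 1 against 3 to 30 in the other vehicle tumors. In FPKM, which corrects for depth, BG136 replicate 6 stood at 0.75 and vehicle replicate 1 at 0.748, and all other tumors at 0.176 or less. Col6a6 had 13 reads in BG136 replicate 6 and 31 in vehicle replicate 1, or 0.11 and 0.244 FPKM, and at most 0.030 FPKM elsewhere.

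In the authors' deposited table, which tested all 12 libraries as separate samples, 2 of 38 collagen genes had a p under 0.05, against 5.05% of all 15170 genes, and 0 had a q under 0.05. The 2 were Col17a1 (log2 change -1.27, p = 0.0108, q = 0.728, from the authors' deposited table) and Col4a5 (log2 change -0.88, p = 0.0462, q = 0.955, from the authors' deposited table). Col17a1 encodes a transmembrane collagen of hemidesmosomes. It had 5, 4, 0, 3 and 20 reads in BG136 tumors and 6 to 19 reads in vehicle tumors, where the 20 come from the deeper, summed pair 7-9. Its FPKM were 0 to 0.055 in BG136 tumors and 0.064 to 0.201 in vehicle tumors, without overlap, on counts this small. Col17a1 was under the limit for testing, so the 0.229% of tested genes without overlap does not cover it. No such share is given here for genes under that limit. Col4a5, a type IV chain of kidney and other specialised membranes, had 19, 4, 6, 5 and 26 reads in BG136 tumors and 5 to 25 in vehicle tumors.

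The machinery that makes, exports and joins collagen did not pass the test either. No gene of the lists below reached an adjusted p under 0.05 in limma, with the lowest at 0.978. Of 20 tested genes that modify and fold the chains, 4 were higher and 16 lower in BG136 tumors, with a median log2 difference of -0.05. Serpinh1 averaged 573 ± 98 FPKM (SD, n = 5) with BG136 and 634 ± 116 FPKM (SD, n = 6) with vehicle. P4hb, a subunit of prolyl hydroxylase, averaged 438 ± 47 with BG136 and 442 ± 63 with vehicle, and the collagen-binding protein gene Sparc 535 ± 104 with BG136 and 565 ± 54 with vehicle. Among 12 tested genes of export and cleavage, 6 were higher and 6 lower, with a median of 0.01; Pcolce, which speeds removal of the procollagen end, averaged 144 ± 15 FPKM with BG136 and 149 ± 12 FPKM with vehicle. Sec13, a coat protein of transport vesicles, had a log2 difference of -0.20, and Bmp1, the protease that trims procollagen, one of -0.03.

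Of 6 tested cross-linking genes, 5 were higher and 1 was lower in BG136 tumors, with a median of 0.11. Tgm2, a transglutaminase, averaged 115 ± 30 FPKM (SD, n = 5) with BG136 and 93.8 ± 17.7 FPKM (SD, n = 6) with vehicle, whereas the lysyl oxidase gene Loxl1 averaged 26.9 ± 10.3 with BG136 and 32.3 ± 9.3 with vehicle. Lox, the founding lysyl oxidase, averaged 14.5 ± 4.9 FPKM with BG136 and 13.8 ± 6.0 FPKM with vehicle. Of 14 tested proteoglycans and glycoproteins that bind fibrils, 5 were higher and 9 lower, with a median of -0.15. Dcn, which encodes the fibril-coating proteoglycan decorin, was at 377, 282, 354, 399.9 and 248 FPKM in BG136 tumors, against 210.1, 269 and 327 FPKM as lowest, median and highest in vehicle tumors. Its log2 difference of 0.30 had an unadjusted p of 0.0498 and an adjusted p of 0.978 in limma. Fmod, the related proteoglycan fibromodulin, had a log2 difference of -0.44 in the other direction (unadjusted p = 0.0146, adjusted p = 0.978 in limma), at 0.934 ± 0.319 FPKM (SD, n = 5) with BG136 and 1.65 ± 0.61 FPKM (SD, n = 6) with vehicle. Fn1, the matrix protein fibronectin, averaged 893 ± 417 with BG136 and 928 ± 276 with vehicle, and Postn, periostin, 199.6 ± 91.0 with BG136 and 190.0 ± 64.5 with vehicle.

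Partners in the basement membrane showed 7 of 10 tested genes higher and 3 lower in BG136 tumors, with a median of 0.04. Hspg2, the proteoglycan perlecan, averaged 84.0 ± 25.1 FPKM (SD, n = 5) with BG136 and 76.5 ± 16.1 FPKM (SD, n = 6) with vehicle. Lamc1, a laminin chain, and Pxdn, the peroxidase that links type IV collagen, had log2 differences of 0.07 and 0.05. Of 6 tested collagen receptors, 4 were higher and 2 lower, with a median of 0.04. The integrin gene Itgb1 differed by 0.02, the collagen-sensing kinase gene Ddr2 by 0.14 and Mrc2, an uptake receptor, by -0.09. Lair1, a further receptor gene, differed by 0.29 (unadjusted p = 0.0474, adjusted p = 0.978 in limma). Of 15 tested genes of the TGF-beta pathway, which drives collagen transcription in fibroblasts, 10 were higher and 5 lower, with a median of 0.05. Among them Ccn2 differed by -0.38 (unadjusted p = 0.0381, adjusted p = 0.978 in limma). Tgfb1 averaged 80.5 ± 8.0 FPKM with BG136 and 75.1 ± 3.5 FPKM with vehicle, Tgfb3 86.6 ± 28.3 with BG136 and 91.6 ± 21.6 with vehicle, and the secreted target Tgfbi 199 ± 44 with BG136 and 182 ± 20 with vehicle.

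Markers of the cells that make collagen overlapped between the groups. Of 11 tested fibroblast markers, 5 were higher and 6 lower in BG136 tumors, with a median of -0.10 and a summed level of 414 to 581 FPKM in BG136 tumors and 386 to 495 FPKM in vehicle tumors. Beside Dcn, its highest genes were Thy1 with a log2 difference of -0.15 and Dpt with one of -0.53 (unadjusted p = 0.0961 in limma). Of 6 tested pericyte and smooth muscle markers, 3 were higher and 3 lower, with a summed level of 35.9 to 43.0 FPKM in BG136 tumors and 30.4 to 50.5 FPKM in vehicle tumors; Cspg4 differed by 0.20, Rgs5 by 0.05 and Tagln by -0.44 (unadjusted p = 0.0125, adjusted p = 0.978 in limma). All 7 tested endothelial markers were lower in BG136 tumors, with a median of -0.055, at summed levels of 62.2 to 86.6 FPKM in BG136 tumors and 66.2 to 85.8 FPKM in vehicle tumors. Pecam1 differed by -0.00, Cdh5 by -0.10 and Egfl7 by -0.05.

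**Figure D5:**
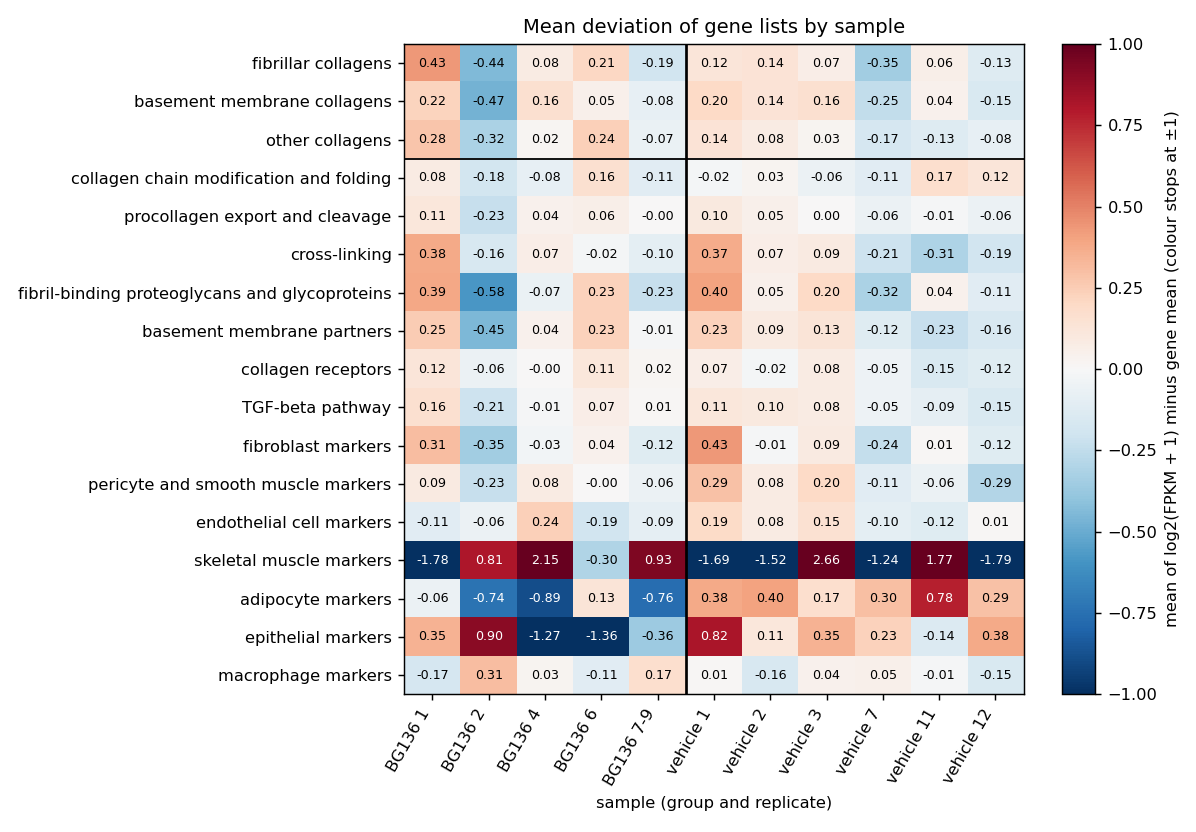
Mean deviation from the gene means, on the scale of log2(FPKM + 1), of the tested genes of each list in each sample, BG136 left of vehicle, with the 3 collagen classes at the top and colours that stop at 1 in either direction. In BG136 replicate 2 the fibrillar class is at -0.44, fibril-binding genes at -0.58 and fibroblast markers at -0.35; in BG136 replicate 1 they are at 0.43, 0.39 and 0.31.

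Several lists shared the low BG136 replicate 2 and the high BG136 replicate 1 of the collagen genes. In these tumors fibril-binding genes were at -0.58 and 0.39, basement membrane partners at -0.45 and 0.25, and fibroblast markers at -0.35 and 0.31. The fibril-binding and fibroblast lists both hold Dcn and Lum, so their values are partly the same. Thy1 was the exception among tested fibroblast markers, at 61.3 FPKM in BG136 replicate 2 and 40.2 FPKM in BG136 replicate 1. It was lowest of all samples in BG136 replicate 6, at 24.9 FPKM. Macrophage markers were highest in BG136 replicate 2, at 0.31 on the same scale, with a summed level of 2163 FPKM; the summed level was 1299 to 1809 FPKM in the other BG136 tumors and 1348 to 1824 FPKM in vehicle tumors. Of the 7 tested macrophage markers, 5 were higher and 2 lower in BG136 tumors, with a median of 0.04, and the complement genes C1qa, C1qb and C1qc differed by 0.04, -0.03 and 0.01. The part that cell makeup had in the collagen levels was not tested.

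Each tested skeletal muscle marker had a higher coefficient of variation between samples than any tested collagen gene. The same held for the tested adipocyte markers except Fabp4 and Lpl, which stayed below Col12a1. Whether the RNA of these markers came from tissue around the tumor was not tested. The log2 differences of all 8 tested skeletal muscle markers were above 0, with a median of 0.69, at summed levels of 5.11 to 209 FPKM in BG136 tumors and 5.68 to 321 FPKM in vehicle tumors; Acta1 differed by 1.35 with a standard error of 1.38, Mylpf by 0.34 and Tnni2 by 0.11. For Acta1, Mylpf and Tnni2 the direction in mean FPKM was the opposite. Acta1 averaged 29.6 FPKM with BG136 and 30.6 FPKM with vehicle, Mylpf 8.96 with BG136 and 11.5 with vehicle, and Tnni2 10.02 with BG136 and 11.6 with vehicle. Tnnc2 and Atp2a1 were also lower with BG136 in mean FPKM, whereas Ckm, Myh4 and Tnnt3 were higher. With the muscle score as a covariate no collagen gene changed direction. All 8 tested adipocyte markers were lower in BG136 tumors, with a median of -0.82, and their summed level was 37.9 to 88.2 FPKM in BG136 tumors and 94.0 to 172 FPKM in vehicle tumors, without overlap. Cfd, Fabp4 and Lpl differed by -1.45, -0.75 and -0.22, and the adjusted p was 0.978 for each in limma. An unadjusted p under 0.05 was reached by 7 of the 8 adipocyte markers, Lpl being the exception, against 2.05% of all genes tested. With the adipocyte score as a covariate the median difference of the collagen genes was 0.39, and 0 of 20 passed; since the scores of the groups do not overlap, that score and the treatment cannot be told apart.

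Markers of other cells that make special collagens stood at different levels. Among cartilage and bone genes, 2 of the 4 that were listed were tested. Sox9 averaged 24.2 ± 3.6 FPKM (SD, n = 5) with BG136 and 23.0 ± 6.5 FPKM (SD, n = 6) with vehicle, Runx2 averaged 4.23 FPKM with BG136 and 4.16 FPKM with vehicle, and Bglap averaged 0.364 FPKM with BG136 and 0.378 FPKM with vehicle. Among keratinocyte genes, 2 of the 4 that were listed were tested. Krt14 averaged 6.70 FPKM with BG136 and 6.23 FPKM with vehicle, Krt10 averaged 1.11 FPKM with BG136 and 1.19 FPKM with vehicle, and Krt5 averaged 0.294 FPKM with BG136 and 0.587 FPKM with vehicle. Of the Schwann cell list 1 gene was tested, Mbp, with a log2 difference of -0.06. Of 5 tested epithelial markers 1 was higher and 4 were lower in BG136 tumors, with a median of -0.80. Krt19 differed by -1.17, Krt18 by -1.03 and Cdh1 by 0.31. Epcam differed by -0.51 (unadjusted p = 0.0322, adjusted p = 0.978 in limma). The epithelial sum was 3.13 FPKM in BG136 replicate 6, 4.77 FPKM in BG136 replicate 4, 10.1 FPKM in BG136 replicate 7-9, 20.8 FPKM in replicate 1 and 33.5 FPKM in replicate 2, against 13.2 to 30.4 FPKM in vehicle tumors. Its part in the collagen levels was not tested.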

How the data were processed

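RNA from 12 MC38 tumor libraries was measured. The authors deposited 1 table of 15170 genes whose expression columns hold FPKM per library, a unit inferred from the steps of low values. The tools named in the submitters' processing notes are Trimmomatic, HISAT2, Cufflinks, HTSeq and DESeq, and the build is GRCm39. Per the file headers, the deposited base means are a signal of size-factor-scaled reads from DESeq2 without pairing, and the linear fold, its log2 value, the p-value and the q-value come from the same authors' test. Recovered reads, with 100% of values within 0.1 of a whole number after scaling FPKM steps to the deposited base mean, were used for depth, for the low genes and for voom.

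BG136 replicates 7 and 9 were averaged. Genes that reached 1 FPKM in 6 or more samples were tested with limma 3.58.1 (R 4.3.3), with a mean-variance trend on log2(FPKM + 1), two-sided, Benjamini-Hochberg adjusted, threshold 0.05. Fold changes on this scale understate those of low genes. Ratios and relations used permutation tests (Python 3.11.15). The steps were tested on simulated data. The members and lists were chosen with earlier results of these data known. All members were accounted for; of other lists the 3 genes with the highest mean FPKM were named, except for some that are not reported here, and any further gene was chosen after its values were seen. Collagen genes of the lists that are not in the table were not analysed here. Alternatives were other filters, pseudocounts, scalings, weights, covariates and left-out samples.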

Additional observations from a re-analysis of the deposited data

Results flagged for a closer look

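Within groups of 5 or 6 samples, 13 of 188 sets of values had a highest or lowest sample set far apart from the rest by Dixon's criterion; chance gives about 1 in 20. Among tested collagens, Col14a1 was set apart in BG136 replicate 2 at 2.72 FPKM, with 4.54 to 5.26 FPKM in the other BG136 tumors. The ratio of Col1a1 to Col1a2 was 1.72 in vehicle replicate 11 and 1.30 to 1.41 in the other vehicle tumors.

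The low collagens gave 7 of the 13. Col6a5 was at 0.75 FPKM in BG136 replicate 6 and at 0.748 FPKM in vehicle replicate 1, and Col6a6 was at 0.11 FPKM and 0.244 FPKM in the same tumors. Col4a5 was at 0.161 FPKM in BG136 replicate 1, Col17a1 at 0.201 FPKM in vehicle replicate 1, and Col19a1 at 0.021 FPKM in vehicle replicate 2, where the other vehicle tumors had 0. Among partner and marker genes, P4hb was highest in BG136 replicate 6 at 520.3 FPKM, Lamc1 lowest in BG136 replicate 2 at 54.8 FPKM, and Cfd and Fabp4 highest in vehicle replicate 11 at 74.3 FPKM and 70.1 FPKM.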

How the results depend on the processing

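In each alternative fitted, 0 collagen genes had an adjusted p under 0.05 in limma, and 0 of all genes tested did. At an unadjusted p under 0.05 there were 0 in the fit as reported. There was 1 with no filter (Col17a1), where 474 of 15170 genes also reached it. With the adipocyte score as a covariate there were 4 (Col3a1, Col5a1, Col6a1 and Col6a2), where 656 of 11356 genes also reached it. Leaving out 1 sample at a time gave 0 to 1. Col6a2 reached it without BG136 replicate 2, where 421 of 11356 genes did. Col27a1 reached it without BG136 replicate 7-9, where 214 of 11356 genes did. With the adipocyte covariate the median difference was 0.388 over all collagens, 0.497 over fibrillar and 0.289 over other collagens; the cause was not tested.

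Several differences changed sign, among them that of Col14a1, the lowest of the 20, and that of Col27a1, which had the lowest unadjusted p. With the adipocyte covariate they were 0.062 for Col14a1, 0.289 for Col16a1, 0.638 for Col3a1, 0.50 for Col5a1 and 0.497 for Col5a2. Without vehicle replicates 11 and 12 they were -0.246 for Col12a1, 0.018 for Col16a1, -0.019 for Col1a1, -0.072 for Col1a2, 0.022 for Col3a1, -0.017 for Col4a1, 0.033 for Col5a1 and -0.056 for Col6a3. With sample weights they were -0.041 for Col12a1, 0.067 for Col18a1, 0.054 for Col3a1 and for Col5a1, and -0.051 for Col7a1. With 12 libraries they were -0.005 for Col1a1, -0.016 for Col4a1 and -0.009 for Col7a1; with equal medians -0.033 for Col4a1, -0.002 for Col4a2 and -0.007 for Col7a1; with quantile normalization 0.068 for Col3a1 and 0.008 for Col5a1; and with voom -0.013 for Col4a1. The pseudocount of 0.1, no trend and the muscle covariate turned none of 20 signs, and the stricter filter none of 18. The replicate block, fitted on samples that share a number, gave -0.115 for Col12a1, -0.016 for Col1a1, -0.015 for Col1a2, -0.024 for Col27a1, -0.178 for Col4a1, -0.138 for Col4a2, -0.06 for Col6a1 and -0.214 for Col6a3. Deviations of same-numbered samples correlated at 0.411, -0.237 and 0.187, and those of differently numbered samples at -0.606 to 0.469. With so few samples, these values cannot settle whether the numbers pair samples.

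Leaving out 1 sample at a time, differences ranged from -0.101 to 0.259 for Col12a1, -0.158 to 0.027 for Col18a1, -0.135 to 0.177 for Col1a1, -0.108 to 0.203 for Col1a2, -0.139 to 0.15 for Col3a1, -0.095 to 0.169 for Col4a1, -0.052 to 0.184 for Col4a2, -0.13 to 0.115 for Col5a1, -0.197 to 0.048 for Col5a2, -0.028 to 0.196 for Col6a1, -0.028 to 0.266 for Col6a3 and -0.024 to 0.081 for Col7a1. Log2 ratio differences ranged from -0.078 to 0.033 for Col1a1/Col1a2, from -0.188 to 0.00 for Col3a1/Col1a1 and from -0.225 to 0.017 for Col5a1/Col1a1. Pearson's r ranged from 0.677 to 0.776 for Col1a1 and Col3a1, missing the threshold after adjustment without BG136 replicate 1 or vehicle replicate 7. It ranged from 0.547 to 0.699 for Col1a1 and Pdgfra and from 0.415 to 0.712 for Col4a1 and Cdh5; both passed without BG136 replicate 6, vehicle replicate 1 or vehicle replicate 11, and the pair of Col4a1 and Cdh5 also with group means subtracted (r = 0.633, permutation p adjusted to 0.0456).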
